A study of Homo sapiens with 4 samples.

Results

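The genes described here encode 9 Krüppel-like factors, KLF2, KLF3, KLF4, KLF6, KLF7, KLF9, KLF10, KLF12 and KLF13, without the erythroid member KLF1. Their GATA2 peaks were taken as the intervals of the asynchronous and mitotic peak lists that share at least 1 base with the GENCODE gene body extended by 50 kb on each side (hg38). This window held 32 of the 31777 asynchronous peaks and 0 of the 1648 mitotic peaks. GATA2 had been immunoprecipitated from K562 cells, an established chronic myeloid leukaemia line with endogenous GATA2, and the DNA sequenced (ChIP-seq). Both groups were fixed first with disuccinimidyl glutarate and then with formaldehyde. The asynchronous group was 1 library of cycling cells, and the mitotic group was 1 library of nocodazole-arrested cells that were sorted as MPM-2+ in several rounds and pooled. With 1 library in each group there is no replicate, so no test between them was made and every difference lacks a replicate check. The lists give only the chromosome, start and end of each peak, and the depth behind them is unknown, so a site without a peak may lie under the limit of detection.

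Krüppel-like factors are zinc-finger proteins that bind GC-rich sequences and CACCC boxes, and most act as local switches of growth, differentiation and quiescence genes. In blood, KLF1 drives red cell genes and KLF3 counteracts it at shared CACCC sites, while KLF2, KLF4, KLF6 and KLF13 have described roles in lymphoid or myeloid cells. GATA2 itself binds the GATA motif, and in mitosis a factor that stays at such a site is said to bookmark it. An asynchronous peak is called bookmarked here where a mitotic peak overlaps it by 1 base or more.

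The sequences that carry the description are given first, from the plus strand of hg38, as at most 300 bases of a peak. Peaks are numbered along the direction of transcription of each gene. In the first stretch the capitals mark a GATA:E-box composite, that is CTG followed after any 8 bases by GATAA, which occurred in no other of the 32 peaks. In the stretches from KLF12, KLF3 and KLF9 the capitals mark GATA strings, which are AGATAA or AGATAG or TGATAA or TGATAG on either strand. The KLF12 and KLF3 peaks were the widest of their genes, and KLF9 had no other peak. In KLF13 peak 2, which lay nearest to a start site, they mark a GATA string together with matches to the CACCC string CCNCNCCC. In that string N is any base, and neither of the marked matches contains CACCC itself.
KLF6 peak 10, chr10:3740318-3740617: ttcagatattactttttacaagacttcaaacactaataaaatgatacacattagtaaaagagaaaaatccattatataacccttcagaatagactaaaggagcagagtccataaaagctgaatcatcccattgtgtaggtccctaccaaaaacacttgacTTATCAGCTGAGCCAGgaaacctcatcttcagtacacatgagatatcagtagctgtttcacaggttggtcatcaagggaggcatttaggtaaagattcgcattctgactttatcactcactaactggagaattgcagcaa
KLF12 peak 1, chr13:74145458-74145757: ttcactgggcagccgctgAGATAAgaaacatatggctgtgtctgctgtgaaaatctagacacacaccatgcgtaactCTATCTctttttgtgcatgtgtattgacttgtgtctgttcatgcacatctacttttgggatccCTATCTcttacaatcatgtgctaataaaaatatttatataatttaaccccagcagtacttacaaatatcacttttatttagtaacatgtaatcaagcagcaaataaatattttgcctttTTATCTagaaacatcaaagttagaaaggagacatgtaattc
KLF3 peak 3, chr4:38667487-38667786: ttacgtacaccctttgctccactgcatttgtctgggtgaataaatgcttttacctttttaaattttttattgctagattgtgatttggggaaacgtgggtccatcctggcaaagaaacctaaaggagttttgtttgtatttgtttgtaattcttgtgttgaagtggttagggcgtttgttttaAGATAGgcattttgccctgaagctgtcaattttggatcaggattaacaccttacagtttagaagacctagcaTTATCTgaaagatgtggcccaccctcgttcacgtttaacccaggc
KLF9 peak 1, chr9:70398229-70398528: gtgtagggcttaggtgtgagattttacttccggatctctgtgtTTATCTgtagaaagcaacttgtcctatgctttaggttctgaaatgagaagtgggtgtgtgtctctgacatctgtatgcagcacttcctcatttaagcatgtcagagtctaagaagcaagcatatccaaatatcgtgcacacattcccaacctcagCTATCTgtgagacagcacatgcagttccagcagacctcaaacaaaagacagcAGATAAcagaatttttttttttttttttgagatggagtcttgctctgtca
KLF13 peak 2, chr15:31365790-31366089: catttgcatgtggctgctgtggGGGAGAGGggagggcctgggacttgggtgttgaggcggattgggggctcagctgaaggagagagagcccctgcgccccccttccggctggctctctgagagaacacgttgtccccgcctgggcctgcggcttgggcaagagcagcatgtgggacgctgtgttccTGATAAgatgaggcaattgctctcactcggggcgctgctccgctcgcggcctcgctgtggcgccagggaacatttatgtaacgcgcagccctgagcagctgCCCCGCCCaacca

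GATA2 peaks were present in the asynchronous windows of 7 of the 9 genes. By comparison, 76% of the 20033 protein-coding genes had at least 1 asynchronous peak in a window built in the same way. KLF6 had the most, with 10 peaks, followed by KLF12 with 8, KLF3 with 5, KLF2 with 4 and KLF13 with 3. KLF9 and KLF10 had 1 each, and KLF4 and KLF7 had none. Neighbours in this order differed by 0 to 3 peaks, and with 1 library the order has no replicate check. By number, KLF6 had more peaks than 96.4% of protein-coding genes, and KLF12 more than 92.7%. Since long genes have long windows, the number was also expressed per 100 kb of window. KLF6 then stood at 9.15 peaks per 100 kb, above 99.7% of protein-coding genes, whose median was 1.41 with quartiles of 0.301 and 2.77. KLF2 with 3.85 and KLF3 with 3.64 peaks per 100 kb were above the upper quartile. KLF12 with 1.46 and KLF13 with 1.44 lay at the median, and KLF10 with 0.935 and KLF9 with 0.769 lay below it. All 9 windows together held 1.94 peaks per 100 kb. This pooled value is not comparable with the median over genes, and no pooled value for all genes is given.

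**Figure D1:**
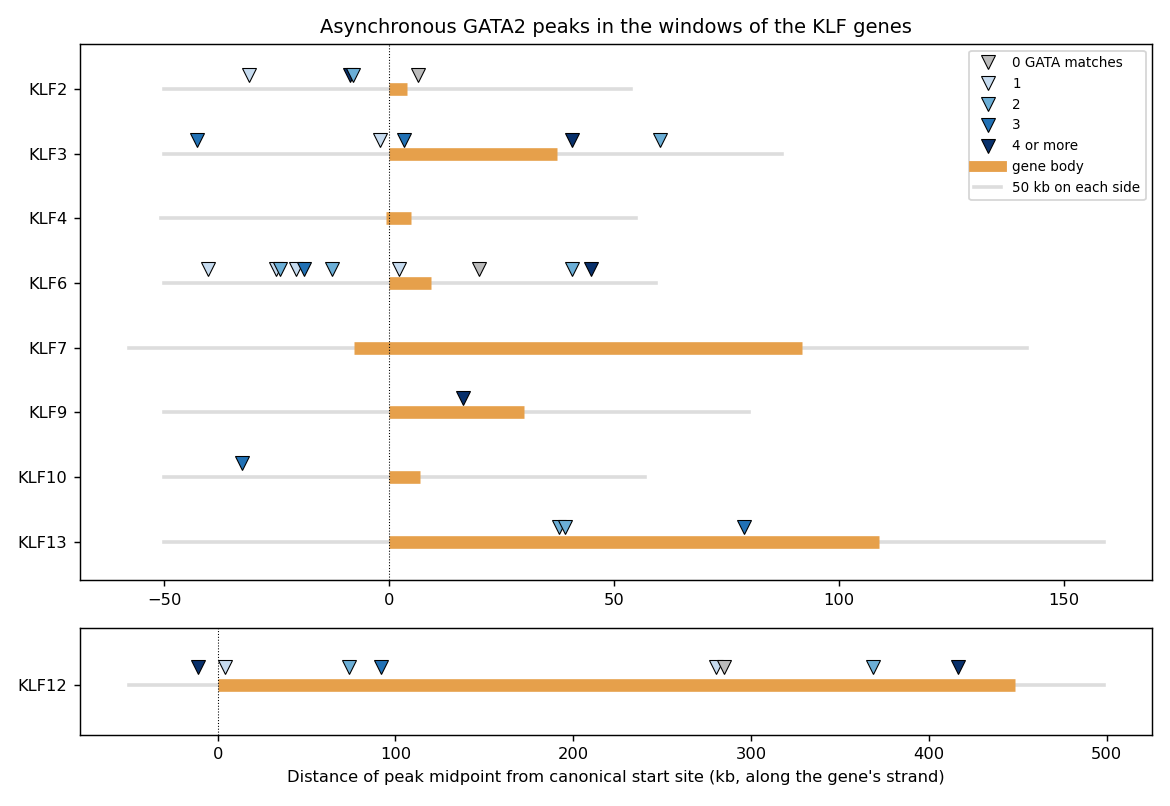
Position of the 32 asynchronous peaks (triangles, coloured by their number of GATA strings) relative to the canonical start site of each gene in kb, along the strand of the gene, with KLF12 on an axis of its own. KLF6 holds 9 peaks on both sides of a short gene body and 1 within it, KLF12 holds 7 of its 8 peaks within the gene, and KLF4 and KLF7 hold none.

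No window held a mitotic peak, and none of the 32 asynchronous peaks was bookmarked. A count of 0 of 32 allows a share of up to 9.38% at 3 counts (the upper bound of the exact binomial 95% interval is 10.9%), a limit that covers counting error only. Over the whole list 5.04% of the asynchronous peaks were bookmarked, which for 32 peaks would come to 1.61 peaks, so a lower share at these genes was not detectable at this number of peaks. Among all protein-coding genes, 11.7% had a mitotic peak in their window. That share rose with the number of asynchronous peaks. It was 2.73% of the 3632 genes with 1 asynchronous peak, as KLF9 and KLF10 have, and 13.1% of the 2436 genes with 3, as KLF13 has. It was 17.9% of genes with 4 peaks, the number of KLF2, and 22.7% of genes with 5, the number of KLF3. Of the 419 genes with 8 asynchronous peaks, as KLF12 has, 36.8% had a mitotic peak, and of the 208 genes with 10, as KLF6 has, 41.3%. In both of these classes the genes without a mitotic peak, among them KLF6 and KLF12, were the more numerous.

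**Figure D2:**
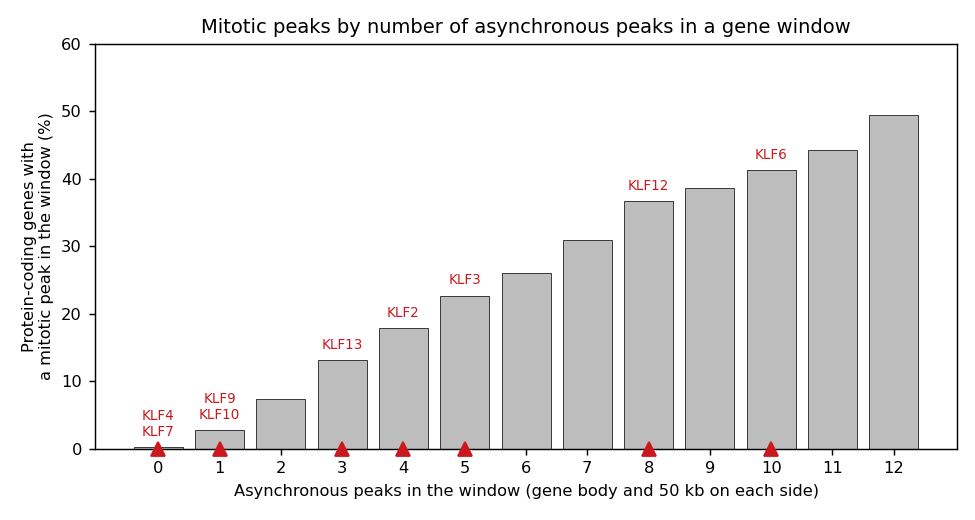
Share of protein-coding genes with at least 1 mitotic peak in the window (grey bars, %) by the number of asynchronous peaks in it, with red triangles at the numbers of the KLF genes, named above the bars. The bar reaches 41.3% at the 10 peaks of KLF6, and each of the 9 KLF genes itself has 0 mitotic peaks.

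The distance from each gene body to the closest mitotic peak differed widely. For KLF2 it was 66.1 kb, to a peak whose nearest start site was that of AP1M1. For KLF4 the distance was 210 kb, for KLF13 it was 348 kb and for KLF3 it was 569 kb. KLF12 and KLF7 lay 786 kb from one, KLF6 lay 1082 kb and KLF9 lay 1195 kb away. For KLF6, the gene with most asynchronous peaks, the closest mitotic peak was therefore more than 1 Mb off, near AKR1E2. No such distances are given here for other genes, so whether any of these is unusual was not tested.

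The activating members of the family were unlike one another. KLF6 (ENSG00000067082, chromosome 10, 3775996 to 3785281, minus strand), a widely expressed immediate-early gene, had 6 peaks upstream, 1 in intron 1 and 3 downstream. The upstream peaks lay between 12.6 and 40.2 kb from the canonical start site, KLF6 peak 2 inside the lncRNA gene ENSG00000287175 and KLF6 peaks 4 to 6 inside the lncRNA gene ENSG00000288755. Most KLF6 peaks were narrow, with a median of 267 bp and a range of 188 to 698 bp. The widest, KLF6 peak 10 from 3740087 to 3740784, lay 44.8 kb downstream of the start site and held 4 GATA strings. It was the one peak among the 32 with the GATA:E-box composite, the arrangement bound by GATA factors together with TAL1, and it held 2 of them. The one printed above, from 3740478 to 3740493, overlaps an E-box CAGCTG.

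KLF2 (ENSG00000127528, chromosome 19, 16324826 to 16328685, plus strand), a factor of endothelial cells and of lymphocyte quiescence, had 3 peaks upstream, all inside the divergent lncRNA KLF2-DT, and 1 downstream. Peaks 2 and 3 were neighbours 95 bp apart, 8.74 and 8.10 kb upstream of the start site, with widths of 535 and 558 bp. They held 4 and 2 GATA strings, so that 6 of the 7 GATA strings in this window lay in this pair. KLF2 peak 4 was 222 bp wide, lay 6.47 kb downstream of the start site and held a CACCC string and an AP-1 string but no GATA string. KLF4 (ENSG00000136826, chromosome 9, 107484852 to 107490482, minus strand), a reprogramming and monocyte factor, and KLF7 (ENSG00000118263, chromosome 2, 207074137 to 207173856, minus strand), known from neurons and fat cells, had no peak in their windows. Their closest asynchronous peaks lay 115 kb and 119 kb from the gene bodies. As a group, the 4 activating genes held 14 peaks with a median width of 270 bp. Of these, 12 had a GATA string, beside 93.0% of the asynchronous peaks outside the 32.

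KLF3 and KLF12 are repressors that recruit CtBP. KLF3 (ENSG00000109787, chromosome 4, 38664197 to 38701517, plus strand) had 5 peaks with a median width of 529 bp. KLF3 peak 2, 222 bp wide, lay 1.95 kb upstream of the canonical start site inside KLF3-AS1. KLF3 peak 3 from 38667106 to 38667863, at 758 bp the widest of the gene, lay in intron 1, 3.29 kb downstream of the start site, with 3 GATA and 2 CACCC strings. Peak 1, 666 bp wide, lay 42.8 kb upstream in KLF3-AS1. Peaks 4 and 5 lay beyond the 3′ end, and peak 5 was the one peak of the 32 with another nearest protein-coding start site, that of TLR10 at 51828 bp. All 5 peaks of KLF3 held a GATA string, as did 93.0% of the asynchronous peaks outside the 32. A CACCC string was in 4 of the 5. It was in 30.4% of the asynchronous peaks outside the 32 and in 32.8% of sequence 5 kb from the 32 peaks. Whether KLF3 differs from other genes in this was not tested, and it has only 5 peaks.

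KLF12 (ENSG00000118922, chromosome 13, 73686089 to 74134404, minus strand), first described as a repressor of AP-2alpha, spans 448316 bp. Of its 8 peaks, 7 lay in introns, namely 3 in intron 1, 2 in intron 3 and 1 each in introns 5 and 6. KLF12 peak 2, in intron 1, lay 4.28 kb from the start site. KLF12 peak 1 from 74145074 to 74145846, 11.1 kb upstream of the start site, was with 773 bp the widest of the 32 peaks. It held 7 GATA strings, more than any other, of which 4 are in the stretch printed above. The narrowest of the 32 peaks, KLF12 peak 5 with 180 bp, was in intron 3 and held 1 GATA string. The peaks of KLF3 and KLF12 together numbered 13, with a median width of 433 bp. Of these, 12 had a GATA string, beside 93.0% of the asynchronous peaks outside the 32.

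KLF9, KLF10 and KLF13 belong to the members that recruit SIN3A, and together held 5 peaks. All 5 had a GATA string, beside 93.0% of the asynchronous peaks outside the 32. KLF13 (ENSG00000169926, chromosome 15, 31326835 to 31435665, plus strand), a regulator of CCL5 in T cells, had 3 peaks of 367 to 438 bp within the gene. KLF13 peaks 1 and 2 were 884 bp apart in intron 1 of the canonical transcript, 37.7 and 39.0 kb from its start site. They were 1581 and 279.5 bp from the start of another KLF13 transcript. KLF13 peak 2 was the most GC-rich of the 32, at 63.0% GC. KLF9 (ENSG00000119138, chromosome 9, 70384604 to 70414657, minus strand), which responds to glucocorticoids and thyroid hormone, had a peak of 553 bp in intron 1, 16.3 kb from the start site, with 4 GATA strings.

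KLF10 (ENSG00000155090, chromosome 8, 102648784 to 102655725, minus strand), the TGF-beta-inducible early gene, had a single peak of 360 bp, 32.8 kb upstream of its start site. It held 3 GATA strings, 1 ETS string and 1 E-box. Of the 9 genes, KLF10 lay closest to a mitotic peak, at 57.5 kb from the gene body, just beyond the window. The nearest start site to that mitotic peak was that of ODF1.

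Over the 32 peaks, 13 lay upstream of the gene, 12 in introns, 6 downstream and 1 in a part of KLF13 outside the canonical transcript. None had its midpoint in an exon of the canonical transcript. Within 3 kb of a protein-coding start site lay 4 peaks, or 12.5% (exact binomial 95% interval 3.51% to 29.0%), against 20.5% of all other asynchronous peaks, a value inside that interval. These were KLF3 peak 2, KLF6 peak 7 and KLF13 peaks 1 and 2. The median distance to the nearest start site was 22475 bp, compared with 14432.5 bp for all other asynchronous peaks. KLF6 gave 10 of the 32 peaks and KLF12, which spans 448316 bp, gave 8, and the difference was not tested. None of the 13 RefSeq promoters (GRCh38.p14, 250 bases before to 50 after a start) that were matched for 7 of the genes overlapped a peak, and 4.09% of all 21613 such promoters did. KLF3 and KLF10 had no matched promoter, so theirs were not searched. Of these 13 promoters, 10 held the CACCC string, compared with 66.2% of all promoters, a difference that was not tested. The 10 came from 6 genes, with more than 1 promoter each from KLF7 and KLF12. A GATA string was found in 1 of them, at KLF12, compared with 19.9% of all promoters.

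Width is the one graded value of a peak in these lists, which hold no height. The 32 peaks had a median width of 393.5 bp with quartiles of 254.5 and 539.5 bp, close to the 378 bp (267 and 518 bp) of all other asynchronous peaks. In the whole list bookmarked asynchronous peaks were wider, with a median of 674 bp. At or above that width were 3 of the 32 peaks, KLF3 peak 3, KLF6 peak 10 and KLF12 peak 1, and none overlapped a mitotic peak. Of all 3317 asynchronous peaks at least as wide, 24.1% were bookmarked. When the list was cut at its width quartiles, the widest class began at 518 bp. In it 16.2% of peaks were bookmarked, and 10 of the 32 fell there. In the narrowest class, up to 266 bp, where another 10 of the 32 fell, 0.190% were bookmarked.

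**Figure D3:**
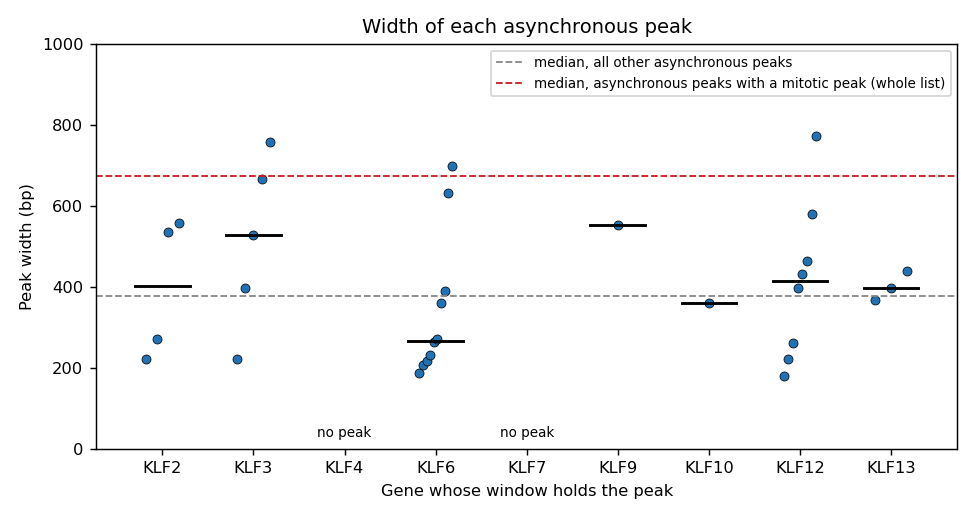
Width in bp of each of the 32 asynchronous peaks (points) by gene, with the median of each gene (black bars), the median of all other asynchronous peaks (grey dashes, 378 bp) and that of the bookmarked asynchronous peaks of the whole list (red dashes, 674 bp). One peak each of KLF3, KLF6 and KLF12 lies above the red line, and most KLF6 peaks lie below the grey one.

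GATA strings were found in 29 of the 32 peaks, or 90.6% (75.0% to 98.0%), against 93.0% of all other asynchronous peaks. In sequence of the same width 5 kb to either side of the 32 peaks, and outside any asynchronous peak, 28 of 58 intervals or 48.3% (35.0% to 61.8%) held one. The mean was 2.22 ± 1.497 (SD over peaks, n = 32) and 2.51 ± 2.99 in all other asynchronous peaks. By number, 8 peaks held 1 GATA string, 9 held 2, 6 held 3 and 6 held 4 or more. The peaks without a GATA string were KLF2 peak 4, KLF6 peak 8 and KLF12 peak 6, which were 218 to 222 bp wide. KLF6 peak 8 and KLF12 peak 6 each held a RUNX string. Of the 71 GATA strings, 52.1% lay within 100 bp of the midpoint of their peak, against 65.3% of those in the whole list. The 71 strings share 29 peaks, with 7 in KLF12 peak 1, and so are not independent. No interval is given for this share, and the difference was not tested. The GC content had a median of 44.03% and ranged from 34.4% in KLF12 peak 5 to the 63.0% of KLF13 peak 2, with a median of 44.1% in all other asynchronous peaks.

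For the strings of other factors, no share differed from that of other GATA2 peaks by more than the counting error of 32 peaks. CACCC strings were present in 11 of the 32 peaks, or 34.4% (18.6% to 53.2%), compared with 30.4% of all other asynchronous peaks and 32.8% of the flanks. RUNX strings (AACCACA) were present in 8 of the 32 peaks or 25% (11.5% to 43.4%), in 13.6% of other peaks and in 6.90% of the flanks (1.91% to 16.7%). Of these 8 peaks, 4 were those of KLF12. ETS strings (AGGAAGT) and AP-1 strings (TGACTCA) were each found in 21.9% (9.28% to 40.0%), with 14.9% and 13.04% in other peaks. In the flanks they were found in 10.3% and 8.62% (2.86% to 19.0% for AP-1). E-boxes (CAGCTG) were found in 31.2% (16.1% to 50.0%) of the 32 peaks, 24.1% of other peaks and 20.7% of the flanks. The flank shares of RUNX and AP-1 lay below the intervals of the 32 peaks, though the intervals of flanks and peaks overlap. The composite of KLF6 peak 10 makes up 3.12% (0.0791% to 16.2%), beside 8.55% in other peaks. For each of the 7 kinds of string the interval included the share of the other peaks.

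The rest of the family was read in the same windows. Of 17 other genes, KLF1, KLF5, KLF8, KLF11, KLF14 to KLF17 and SP1 to SP9, 14 had an asynchronous peak and 0 a mitotic peak, where 76% and 11.7% of all protein-coding genes had one. Their windows, of which those of SP1 and SP7 and those of SP2 and SP6 overlap, held 38 distinct asynchronous peaks, with a median of 2 for each gene beside 3 for the genes described here, and a maximum of 8 at SP2. KLF1 had 3 asynchronous peaks. Over all 26 genes, 70 asynchronous peaks were found and none was bookmarked. The whole-list share of 5.04% would come to 3.52 of 70 peaks. A count of 0 of 70 allows a share of up to 4.29% at 3 counts, which is below the whole-list share. The exact binomial 95% interval is wider, reaches 5.13% and includes the whole-list share. Since these limits fall on either side of 5.04%, 70 peaks do not decide whether the share is lower in this family.

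Beyond 50 kb, 40 further asynchronous peaks had 1 of these genes as their nearest protein-coding start site. KLF4 took 18 of them, all upstream, at 115 to 666 kb, and KLF6 took 12, at 50.7 to 201 kb on both sides. KLF7 took none. Of the 18 peaks given to KLF4, 2 were bookmarked, or 11.1% (exact binomial 95% interval 1.38% to 34.7%), and of the 22 given to the other genes 0 were, which allows a share of up to 13.6% at 3 counts. The whole-list share of 5.04% lies within both ranges and would come to 0.906 of 18 and 1.11 of 22 peaks, so no difference between KLF4 and the other genes was detectable. The first mitotic peak, 342 bp wide, from 107708091 to 107708432, lay 218 kb upstream of KLF4 inside an asynchronous peak of 538 bp, and held 2 GATA strings and 1 AP-1 string. The second, 465 bp wide, from 107784410 to 107784874, lay 294 kb upstream inside an asynchronous peak of 739 bp, and held 1 GATA and 1 ETS string. Whether these sites act on KLF4 was not tested. No other mitotic peak had 1 of the 9 genes as its nearest start site. A stretch of the second is printed for that reason, from the plus strand of hg38 with its GATA string in capitals.
KLF4 distal mitotic peak 2, chr9:107784493-107784792: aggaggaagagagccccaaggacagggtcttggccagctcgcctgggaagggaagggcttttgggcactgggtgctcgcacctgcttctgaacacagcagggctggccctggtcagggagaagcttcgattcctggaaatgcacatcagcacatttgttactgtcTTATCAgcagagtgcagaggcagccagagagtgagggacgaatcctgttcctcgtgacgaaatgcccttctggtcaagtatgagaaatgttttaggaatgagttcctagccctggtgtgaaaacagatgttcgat

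**Figure D4:**
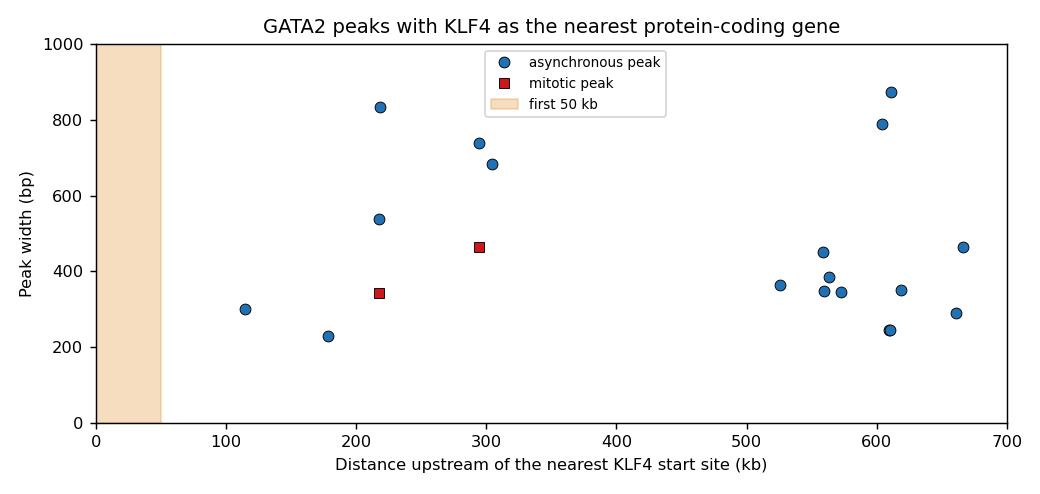
Distance in kb upstream of the nearest KLF4 start site and width in bp of the 18 asynchronous peaks (circles) and 2 mitotic peaks (squares) that have KLF4 as their nearest protein-coding gene. The first 50 kb (shaded) are empty, and the mitotic peaks lie at 218 and 294 kb.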

How the data were processed

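GATA2 ChIP-seq peaks of asynchronous and of mitotic K562 cells were used, 1 library per condition. Both input libraries were not analysed here. The authors aligned reads to hg38 with BWA 0.7.12, kept uniquely mapped reads, extended them, called peaks with MACS2 2.1.0 and Genrich 0.6.1 and removed blacklisted regions. How the calls were combined is not given in the sources used here. The deposited lists have 3 columns (chromosome, start, end), in bp and with no score. Genes, start sites and canonical transcripts were those of GENCODE release 44 on the same build. Positions count the first base as 1.

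The 9 genes, the strings and the lists were chosen with earlier results of these data known. All 9 genes are named. Lists were compared by at least 1 shared base. Strings were matched on both strands without overlap of matches of the same kind, and strings of different kinds may overlap. Flanks that touched an asynchronous peak were left out. Intervals are exact binomial (Clopper-Pearson) at 95%. No test was made. Overlap and string steps were tested on simulated data. Alternatives changed the window (10 and 100 kb), the assignment, the overlap rule, the strings and the interval searched. Some peak sequences are not reported here. The work ran in Python 3.11.15 with pysam 0.24.0, matplotlib 3.10.9, numpy 2.4.6 and scipy 1.17.1.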

Additional observations from a re-analysis of the deposited data

How the results depend on the processing

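Of 28 alternative values, 18 stayed within 1.5 times a count or within the interval of a share, and 10 moved. Among the 18 are the values of 0 for mitotic peaks and bookmarking with 10 kb, other overlap rules, wider peaks or no KLF6. Those values were fixed in advance, so the tally does not measure how stable the absence of mitotic peaks is. With a window of 10 kb there were 18 asynchronous peaks, and with 100 kb there were 53, with 2 mitotic peaks at 2 of the genes, KLF2 and KLF10. When peaks were given to the nearest protein-coding start site, there were 71 asynchronous peaks and 2 mitotic peaks at 1 gene, KLF4. The bookmarked share was then 2.82%, and with 100 kb it was 3.77%, both within the limit for 0 of 32. It stayed at 0 with 10 kb, with reciprocal overlap of at least 50%, with midpoints within 200 bp, with the wider peaks only and without KLF6. None of these settings could give another value, since the 50 kb windows hold no mitotic peak. The mean number of GATA strings fell from 2.22 to 1.16 in 200 bp around the midpoint and to 1.06 with AGATAA alone, as fewer bases or strings are searched. The share of peaks with a GATA string fell from 90.6% to 75% in both cases, at the lower end of its interval. The CACCC share fell from 34.4% to 15.6% with CCACACCC alone. A difference in width between bookmarked and other peaks could not be computed in the 50 kb or 10 kb windows or with reciprocal overlap, since no peak was bookmarked. With 100 kb it was 417 bp, for 2 against 51 peaks. No paired analysis was possible because each condition has 1 library. The depth of the libraries is unknown, so a site without a mitotic peak may lie under the limit of detection.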

Other observations

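Outside the windows, 1 of the 12 distal asynchronous peaks with KLF6 as the nearest gene, 847 bp wide on chromosome 10 from 3578691 to 3579537, held 46 GATA strings. Any of the 32 window peaks held at most 7, and the mean of all asynchronous peaks outside the 32 was 2.51 ± 2.99 (SD). How the 46 strings are arranged, and whether reads map uniquely there, was not examined. This peak was not bookmarked, and of all asynchronous peaks at least 674 bp wide 24.1% were.

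Of the 18 distal peaks with KLF4 as the nearest gene, 15 held a GATA string, and their median width was 375 bp. An asynchronous peak of 833 bp, from 107708663 to 107709495, lay beside the first bookmarked one and held 3 GATA strings, more than the 2 of its narrower bookmarked neighbour, and overlapped no mitotic peak. The peak of 872 bp from 108101141 to 108102012 held 9 GATA strings and was not bookmarked either. Both peaks are wider than 674 bp, and of all asynchronous peaks at least that wide 24.1% were bookmarked.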
